A study of Mus musculus with 6 samples.

Results

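The complement genes described here are C3 and 8 genes that activate it, restrain it or receive its signals, chosen by name. The choice was made with earlier results of these data known. C3 is the central component of complement. C4b (a component of the classical and lectin pathways), Cfb (complement factor B) and C1ra (a C1r protease) act in its activation. Serping1 (the C1 inhibitor), Cd55 (decay accelerating factor) and Cd59a (a CD59 protein) are regulators, and C3ar1 and C5ar1 are the receptors of the fragments C3a and C5a. All 9 are among the 43043 genes of the deposited tables, and 7 of them passed the filter on low counts that left 14419 genes for testing. D4M-3A is a mouse melanoma cell line, and RNA was sequenced from 3 samples of control cells (Ctrl) and 3 of Nfkbiz knockout cells (Nfkbiz KO), all kept in RPMI-1640 with FCS. Both groups were made by lentiviral transduction and puromycin selection, the Ctrl cells with an empty CRISPR-Cas9 construct and the Nfkbiz KO cells with a construct against Nfkbiz, the gene of the NF-kB cofactor IκBζ. The knockout rests on 1 construct, and the methods describe selection but no single-cell clone. The comparison asks which transcripts depended on IκBζ in these cells.

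Complement is a cascade of proteins best known from blood plasma, where most of them are made by the liver, although many other cell types also transcribe some of its genes. In the classical pathway, C1q with the proteases C1r and C1s cleaves C4 and C2. The lectin pathway does so through MASP proteases, and both lead to cleavage of C3. The alternative pathway amplifies C3 cleavage through factor B. The fragments C3a and C5a signal through the receptors C3aR and C5aR, while C1 inhibitor, decay accelerating factor, CD59 and clusterin hold the cascade back.

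Sequence upstream of some of the genes that differed between the groups is shown first, because IκBζ acts on transcription together with NF-kB proteins. The RefSeq promoter table (GRCm38.p6) held 6 of the 9 genes, and C4b, Cfb and Serping1 were not matched. The 250 bases before the annotated start are given from 5′ to 3′ on the strand of the gene, and capitals mark letters that match an NF-kB motif (GGG, then any 5 bases, then CC) or a C/EBP motif (TTNNGNAA), searched on both strands. The window of C3 lies at chr17:57228137-57228386 on the minus strand, that of C1ra at chr6:124512371-124512620 on the plus strand and that of C3ar1 at chr6:122856158-122856407 on the minus strand. C1s1, which encodes the C1s protease and is not among the 9 genes, has its window at chr6:124542360-124542609 on the minus strand for the first of the table's starts.
C3: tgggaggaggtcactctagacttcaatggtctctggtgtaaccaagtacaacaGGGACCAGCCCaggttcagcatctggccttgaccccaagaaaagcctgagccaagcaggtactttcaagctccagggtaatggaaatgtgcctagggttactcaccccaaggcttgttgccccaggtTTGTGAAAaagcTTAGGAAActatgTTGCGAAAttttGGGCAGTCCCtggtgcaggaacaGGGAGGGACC
C1ra: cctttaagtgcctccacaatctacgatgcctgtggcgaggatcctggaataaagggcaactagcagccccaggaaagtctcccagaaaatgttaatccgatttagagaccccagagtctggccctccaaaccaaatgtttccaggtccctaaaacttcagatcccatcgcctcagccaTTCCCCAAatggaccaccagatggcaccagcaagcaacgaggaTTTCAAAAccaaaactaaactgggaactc
C1s1: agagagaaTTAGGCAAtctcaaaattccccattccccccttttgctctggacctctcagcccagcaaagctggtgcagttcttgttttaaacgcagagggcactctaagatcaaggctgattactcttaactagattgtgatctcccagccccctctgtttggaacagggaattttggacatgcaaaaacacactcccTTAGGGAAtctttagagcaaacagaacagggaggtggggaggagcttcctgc
C3ar1: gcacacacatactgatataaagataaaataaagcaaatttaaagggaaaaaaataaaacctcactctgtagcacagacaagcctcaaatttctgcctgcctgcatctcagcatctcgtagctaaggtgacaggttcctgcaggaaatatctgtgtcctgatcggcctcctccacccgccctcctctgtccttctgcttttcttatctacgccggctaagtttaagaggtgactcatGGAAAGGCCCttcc
The C3 window held 4 matches to the NF-kB letters, a pair of which overlap each other, and 3 matches to the C/EBP letters, which lie between 70 and 38 bases before the start. The C1ra window held 0 NF-kB and 2 C/EBP matches, the C1s1 window shown held 0 and 2 while that of its other start, chr6:124542322-124542571, held 1 and 1, and the C3ar1 window held 1 and 0. Among the matched genes whose windows are not shown, Cd55 also held 4 NF-kB matches, with 0 C/EBP matches. Cd59a held 1 and 0, and C5ar1 held 0 and 1. Cd55 and C5ar1 had too few reads for testing, and Cd59a did not differ by the test. These letters are common, since 45.8% of the 32851 promoter windows of the same length in the table held at least 1 NF-kB match and 36.8% held at least 1 C/EBP match. A STAT motif (TTCNNNGAA, in 7.02% of all windows) had no match in any of the 6 genes. An interferon response motif (GAAA, then any 2 bases, then GAAA, in 2.98% of all windows) had 1 match in Cd59a and none in the other 5. A match of letters is a description and does not show binding.

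Libraries held 32219900 to 44927203 reads on genes, of which 96.5% to 96.9% mapped uniquely, so that a count of 0 allows up to 0.0668 to 0.0931 CPM (counts scaled to library size) from counting error alone. The target gene Nfkbiz had 69.1, 75.2 and 63.4 TPM (reads scaled for transcript length and library size) in the Ctrl libraries and 34.8, 34.7 and 35.1 TPM in the Nfkbiz KO libraries, and these reads do not tell edited from unedited transcripts. The paper checked the depletion of IκBζ protein in D4M-3A cells by immunoblot and describes it as efficient. Melanocyte markers were nearly absent in both groups. Of 7, 6 stayed under 1 TPM in every library, Sox10 and Tyr had 0 TPM throughout, and the summed level was 1.11 to 1.74 TPM in Ctrl and 1.27 to 1.68 TPM in Nfkbiz KO, so these markers do not bear out the label of melanoma cells. Hepatocyte markers summed to at most 0.163 TPM, with 5 of 5 under 1 TPM. Of 7 macrophage and leukocyte markers, 5 were under 1 TPM in every library, with Adgre1 at 0 TPM and Ptprc at 0.0304 TPM at most, and the list summed to 16.1 to 17.9 TPM in Ctrl and 17.4 to 20.3 TPM in Nfkbiz KO, most of it from Cd14. The 6 fibroblast markers summed to 582 to 657 TPM across Ctrl libraries, against 475 to 512 TPM across knockout libraries. Lum and Thy1 stayed under 1 TPM. Col1a1, Col1a2 and Dcn passed the test as lower (log2 fold changes of -0.58, -0.21 and -0.79). Pdgfra did not differ by the test (log2 fold change of 0.0019, adjusted p = 0.98 from edgeR). The part of these markers in the values below was not tested.

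C3 fell in Nfkbiz KO cells to a small part of its control level, and C1ra fell with it. C4b fell by less, from a low level. C3ar1, the receptor of C3a, rose. For Cfb, Serping1 and Cd59a the test found no difference, and Cd55 and C5ar1 were at the limit of detection in both groups. A gene is written here as lower or higher at an adjusted p of 0.05 or less in edgeR's quasi-likelihood fit, after Benjamini-Hochberg correction across the 14419 genes. It is written as called when its fold change was also above 2 and the difference of group means above 4 TPM, the thresholds of the study. Of the 7 tested genes, 3 were lower and 1 was higher, beside 18.4% of all tested genes lower and 18.2% higher. C3 and C1ra were called lower, beside 1.03% of all tested genes, and 0 of the 7 were called higher, beside 0.756%. The median log2 fold change was -0.39 over the 7 genes and -0.02 over all tested genes. In log2 CPM, 5 of the 7 genes (C3, C1ra, C4b, C3ar1 and Cfb) had groups that did not overlap, beside 48.4% of all tested genes. Of these 5, Cfb did not pass the test. The study's own list of genes changed in these samples names C3, C1ra and, of the genes described further on, Clu, so that list is not independent evidence of their direction.

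**Figure D1:**
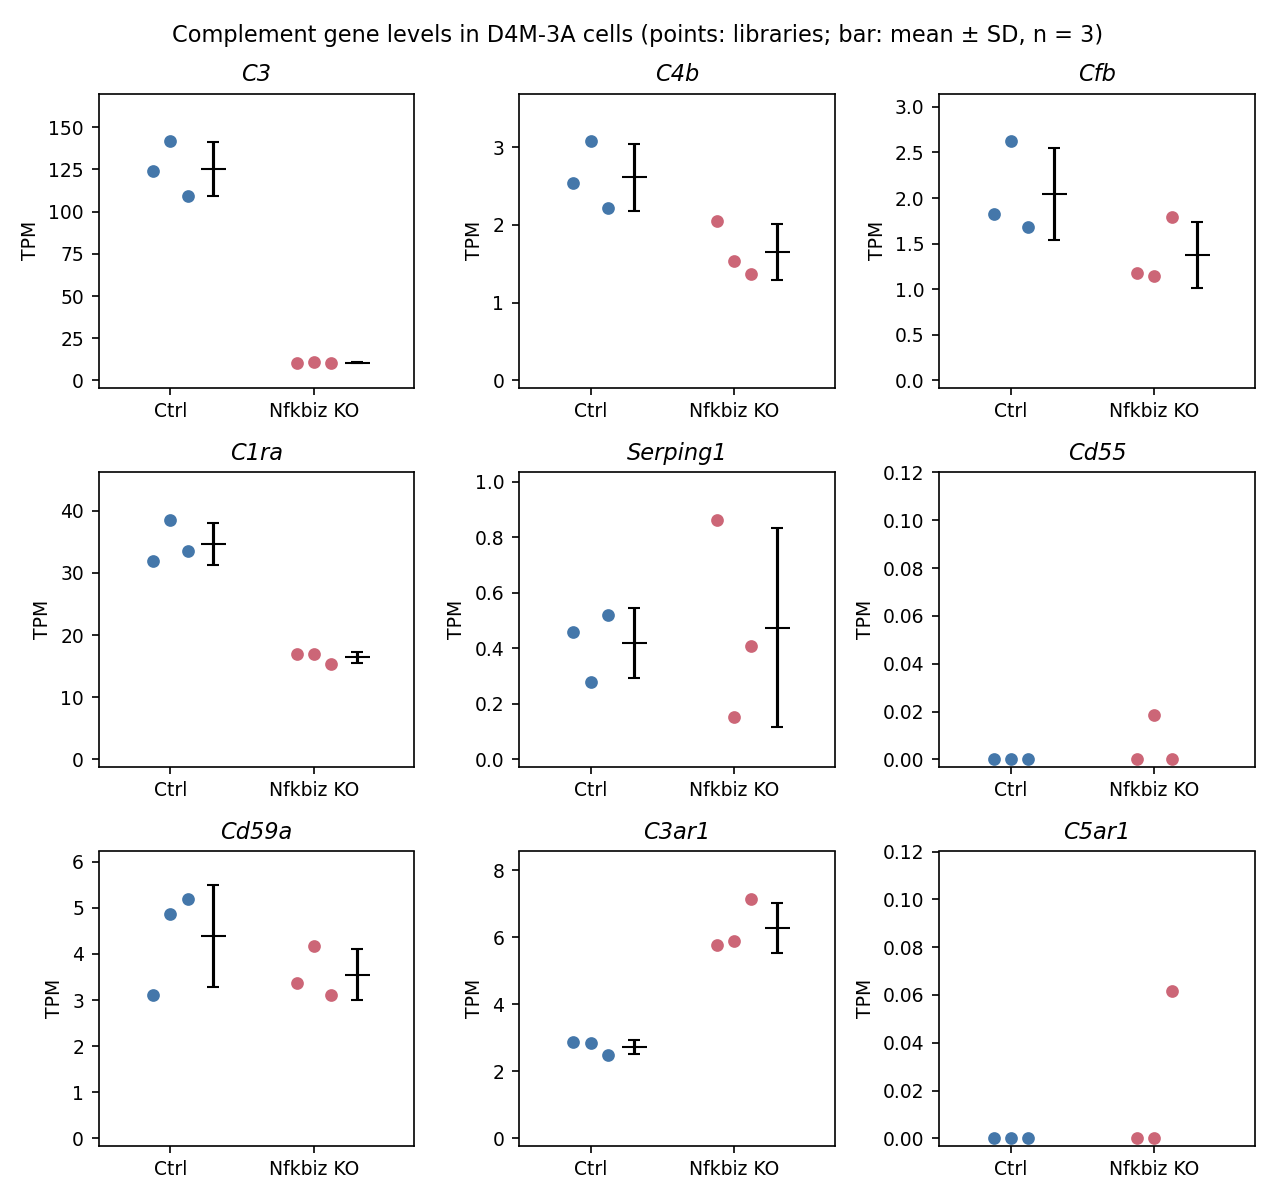
Levels of the 9 complement genes in TPM (vertical axis, a separate linear scale for each gene) in the 3 Ctrl (blue) and 3 Nfkbiz KO (red) libraries. Points are libraries and, for the 7 tested genes, bars give the mean ± SD (n = 3). C3 lies between 110 and 142 TPM in Ctrl and between 10.1 and 11.2 TPM in Nfkbiz KO, and C3ar1 moves the other way.

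C3, which lies at chr17:57510964-57535155 on the minus strand of GRCm39, was the most abundant of the 9 genes per transcript length in Ctrl cells, with 124, 142 and 110 TPM in replicates 1, 2 and 3. In Nfkbiz KO cells it had 10.1, 11.2 and 10.5 TPM. Every Nfkbiz KO library lay far below every Ctrl library, and the Nfkbiz KO libraries lay close together. The counts behind these levels were 6595, 7903 and 7489 reads in Ctrl and 470, 647 and 688 reads in Nfkbiz KO, so counting error is small in both groups. The means were 125 ± 16.1 TPM and 10.6 ± 0.547 TPM (SD, n = 3 each), and the model gave a log2 fold change of -3.64 ± 0.076 (standard error, 95% interval -3.81 to -3.48; adjusted p = 2.4e-11 from edgeR), or 12.5-fold lower. C3 transcripts were still detected well above the limit of a count of 0 in all 3 Nfkbiz KO libraries.

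C1ra encodes a C1r protease, which on activation cleaves C1s. Its place is chr6:124489364-124500402 on the plus strand. It had 32.0, 38.4 and 33.5 TPM in Ctrl and 16.9, 16.9 and 15.4 TPM in Nfkbiz KO, without overlap of the groups. The means were 34.6 ± 3.38 and 16.4 ± 0.872 TPM, and the log2 fold change was -1.18 ± 0.073 (standard error, 95% interval -1.34 to -1.03; adjusted p = 1.2e-07 from edgeR), or 2.27-fold lower. Of its reads, 80.4% mapped uniquely, and with those alone the log2 fold change was -1.24. The near copy C1rb had at most 2 reads in any library.

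C4b encodes complement C4, which is cleaved by C1s and by MASP proteases, and lies at chr17:34947354-34962912 on the minus strand. Its levels were 2.54, 3.07 and 2.22 TPM in Ctrl and 2.05, 1.53 and 1.36 TPM in Nfkbiz KO. The lowest Ctrl library was only slightly above the highest Nfkbiz KO library. The means of 2.61 ± 0.431 and 1.65 ± 0.359 TPM corresponded to a log2 fold change of -0.78 ± 0.17 (standard error, 95% interval -1.16 to -0.40; adjusted p = 0.0040 from edgeR). C4b no longer passed the test when TPM values were used in place of reads, with a difference of -0.45 on the log2(TPM + 1) scale and an adjusted p of 0.052 from limma. Of its reads, 96.6% mapped uniquely. Its near copy C4a had 3 to 17 reads in a library and was not tested.

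Cfb encodes factor B, which supplies the protease of the alternative pathway C3 convertase. It had 1.82, 2.62 and 1.69 TPM in Ctrl and 1.18, 1.15 and 1.79 TPM in Nfkbiz KO, so that Nfkbiz KO replicate 3 lay among the Ctrl libraries on this scale. From reads, the log2 fold change was -0.21 ± 0.14 (standard error, 95% interval -0.50 to 0.09; adjusted p = 0.26 from edgeR). Only 9.35% of the Cfb reads mapped uniquely, 9 to 19 reads in a library, so its values are uncertain. Its annotated span, chr17:35074852-35081559 on the minus strand, overlaps Gm20547 on the same strand, to which 0 to 10 reads were assigned, and Nelfe on the opposite strand, which had up to 2322 reads. The reads were counted without strand.

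The 3 regulators gave no difference that passed the test. Serping1 encodes C1 inhibitor, which inactivates C1r, C1s and MASP proteases. It had 17, 8 and 16 reads in Ctrl and 18, 6 and 15 reads in Nfkbiz KO, with a log2 fold change of -0.09 whose 95% interval, -1.15 to 0.98, leaves room for a change of about 2-fold either way (adjusted p = 0.91 from edgeR). Cd59a encodes a membrane protein that blocks the last step of the cascade. Its levels of 3.11, 4.86 and 5.18 TPM in Ctrl and 3.38, 4.17 and 3.10 TPM in Nfkbiz KO overlapped, with a log2 fold change of -0.39 (95% interval -0.85 to 0.07, adjusted p = 0.18 from edgeR). Without Ctrl replicate 1, the lowest of the Ctrl libraries, its log2 fold change was -0.57 and the adjusted p was 0.038. Without Ctrl replicate 3, the highest of them, these were -0.24 and 0.47. Cd55, which speeds the decay of C3 convertases, had 1 read in 1 library of each group and 0 in the others, and no fold change is given because both groups are at or under the limit of 3 reads. Its near copy Cd55b had 0 reads throughout, and Cd59b had at most 3.

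The receptors differed in level. C3ar1, at chr6:122823393-122833122 on the minus strand, had 2.87, 2.84 and 2.48 TPM in Ctrl and 5.79, 5.89 and 7.14 TPM in Nfkbiz KO. The highest Ctrl library had less than the lowest Nfkbiz KO library by a wide margin. The means were 2.73 ± 0.217 and 6.27 ± 0.750 TPM, and the log2 fold change was 1.11 ± 0.13 (standard error, 95% interval 0.83 to 1.40; adjusted p = 2.8e-05 from edgeR), or 2.16-fold higher, on 127, 132 and 142 reads in Ctrl and 224, 283 and 390 reads in Nfkbiz KO. It was not called because its means differed by 3.54 TPM. C3aR is known from myeloid cells. Of the 7 macrophage and leukocyte markers, 5 were under 1 TPM in every library, Cd14 had 13.5 to 15.2 TPM in Ctrl and 14.6 to 16.2 TPM in Nfkbiz KO, and Cd68 had 1.78 to 2.43 TPM in Ctrl and 1.76 to 4.01 TPM in Nfkbiz KO, with overlap between the groups for both. Their part in the level of C3ar1 was not tested. C5ar1, the C5a receptor, had 0 reads in every Ctrl library and 0, 1 and 2 reads in Nfkbiz KO, within the limit that a count of 0 allows.

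The order of the 9 genes by TPM changed between the groups. In Ctrl cells C3 was highest, then C1ra and Cd59a, followed by C3ar1, C4b and Cfb, whose neighbours in this order overlapped, and then Serping1. In Nfkbiz KO cells C1ra was above C3, C3ar1 ranked above Cd59a, and C4b and Cfb overlapped. C3 took 81.3%, 80.8% and 79.0% of the reads on the 9 genes in Ctrl libraries and 32.3%, 35.4% and 33.5% in Nfkbiz KO libraries. Within a library, a ratio of TPM does not depend on the scaling between libraries. The ratio of C3 to C3ar1 was 43.3, 49.9 and 44.2 in Ctrl and 1.75, 1.91 and 1.48 in Nfkbiz KO. The ratio of C3 to C1ra was 3.88, 3.69 and 3.28 in Ctrl and 0.600, 0.663 and 0.685 in Nfkbiz KO, so C3 fell by more than C1ra in each library. Each ratio of TPM separated the groups. On the log2 ratios of reads, each pair of genes gave the lowest p that 3 samples against 3 can give (exact two-sided permutation test, p = 0.1).

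**Figure D2:**
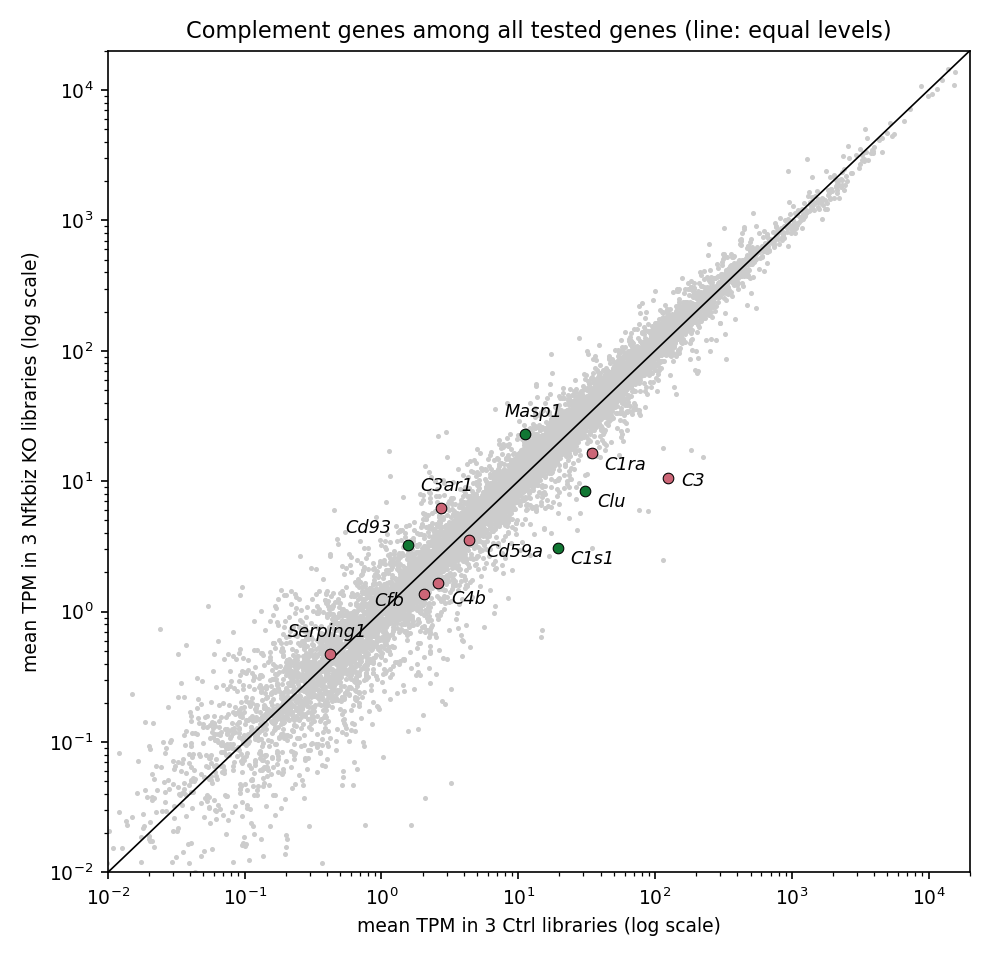
Mean TPM of all tested genes in 3 Ctrl libraries (horizontal, log scale) and 3 Nfkbiz KO libraries (vertical, log scale), with genes at a mean of 0 left out. The tested genes among the 9 are red, and the line marks equal levels. C1s1, Clu, Masp1 and Cd93, chosen from the other complement genes that passed the test, are green. The remaining complement genes are not marked in colour, among them C2, Cd46, Cr1l, Cr2 and Itgb2, which did not pass the test. C3, at 125 and 10.6 TPM, lies farther from the line than the other tested genes of the 9.

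The rest of the pathway was read from 47 further complement genes, of which 46 were found in the tables and 11 were tested. Of these 11, 4 were lower and 2 were higher, beside 18.4% and 18.2% of all tested genes, with a median log2 fold change of -0.11 beside -0.02 over all tested genes. Most of the cascade was hardly transcribed in either group: 14 of the 46 genes had 0 reads in every library, and 33 of the 35 untested genes never exceeded 10 reads. Over all 43043 genes, 19799 had 0 reads in every library, and 27544 of the 28624 untested genes never exceeded 10 reads. Low counts of this kind were thus not particular to complement. C1q was absent at this depth, with 0 reads for C1qa, C1qb and C1qc. None of the 7 terminal pathway genes (Hc, which encodes C5, and the genes of C6 to C9) was tested, and C4bp and Vtn had 0 reads.

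In the classical pathway, C1s1 fell further than C1ra. It encodes C1s, the protease that C1r activates. C1s1 had 17.0, 22.3 and 19.3 TPM in Ctrl and 2.74, 3.13 and 3.42 TPM in Nfkbiz KO, and the groups lay far apart. The means were 19.6 ± 2.67 and 3.10 ± 0.341 TPM, for a fitted log2 fold change of -2.74 ± 0.13 (standard error; from edgeR, adjusted p = 8.3e-09), or 6.69-fold lower, and it was called. Of its reads, 87.5% mapped uniquely, and the near copy C1s2 had at most 3 reads. The annotated span of C1s1, chr6:124507297-124559389 on the minus strand, holds C1rb on the opposite strand. The ratio of C1s1 to C1ra was 0.533, 0.581 and 0.578 in Ctrl and 0.162, 0.185 and 0.222 in Nfkbiz KO, and the log2 ratio of their reads differed by -1.57 (exact two-sided permutation test, p = 0.1, the lowest possible). C1ra and C1s1 thus fell by unequal amounts. C2, the other classical pathway gene tested, did not pass the test. Of the lectin pathway, the 1 gene tested was higher. Masp1, which encodes a MASP protease, rose from 10.9, 12.8 and 9.98 TPM to 23.5, 23.9 and 21.8 TPM, for a fitted log2 fold change of 0.94 ± 0.068 (standard error; from edgeR, adjusted p = 4.5e-07). Mbl1 and Mbl2, which encode mannose-binding lectins, had 0 reads.

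**Figure D3:**
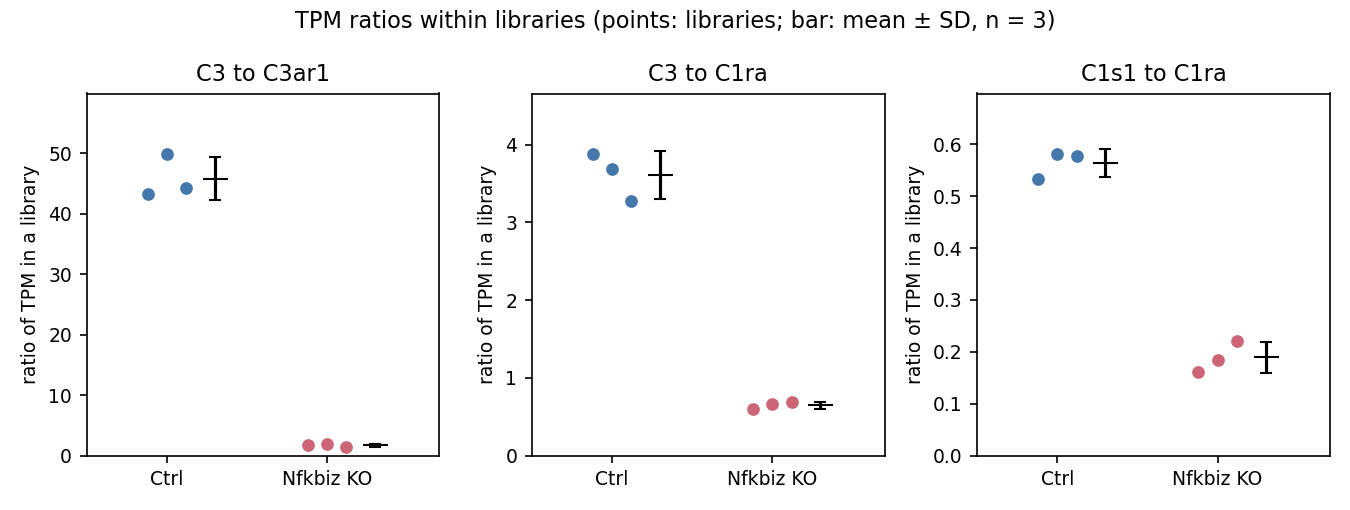
Ratios of TPM between pairs of complement genes within each library (vertical axis, linear from 0) for Ctrl (blue) and Nfkbiz KO (red), with the mean ± SD (n = 3). All 3 ratios are lower in every Nfkbiz KO library, that of C1s1 to C1ra between 0.162 and 0.222 against 0.533 to 0.581 in Ctrl.

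Of the fluid-phase regulators, Clu fell. It encodes clusterin, which binds terminal complement complexes and has other roles. It had 28.4, 30.2 and 33.1 TPM in Ctrl and 9.45, 8.11 and 7.81 TPM in Nfkbiz KO, for a fitted log2 fold change of -1.96 ± 0.098 (standard error; from edgeR, adjusted p = 1.8e-08), and was called. Cfp, which encodes the alternative pathway stabiliser properdin and is named after its values were seen, had means of 3.22 and 2.33 TPM and a log2 fold change of -0.55 (adjusted p = 0.028 from edgeR). The membrane regulators Cr1l, at 12.2 ± 1.24 and 14.1 ± 0.387 TPM with a log2 fold change of 0.12 (95% interval -0.01 to 0.25), and Cd46 did not pass the test. Of 3 tested receptor genes, Cd93, first described as a C1q receptor, was higher, at 1.31, 1.82 and 1.54 TPM in Ctrl and 3.15, 2.84 and 3.66 TPM in Nfkbiz KO (log2 fold change 0.96, standard error 0.15, adjusted p = 0.00032 from edgeR). Cr2 and Itgb2 did not pass the test.

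**Figure D4:**
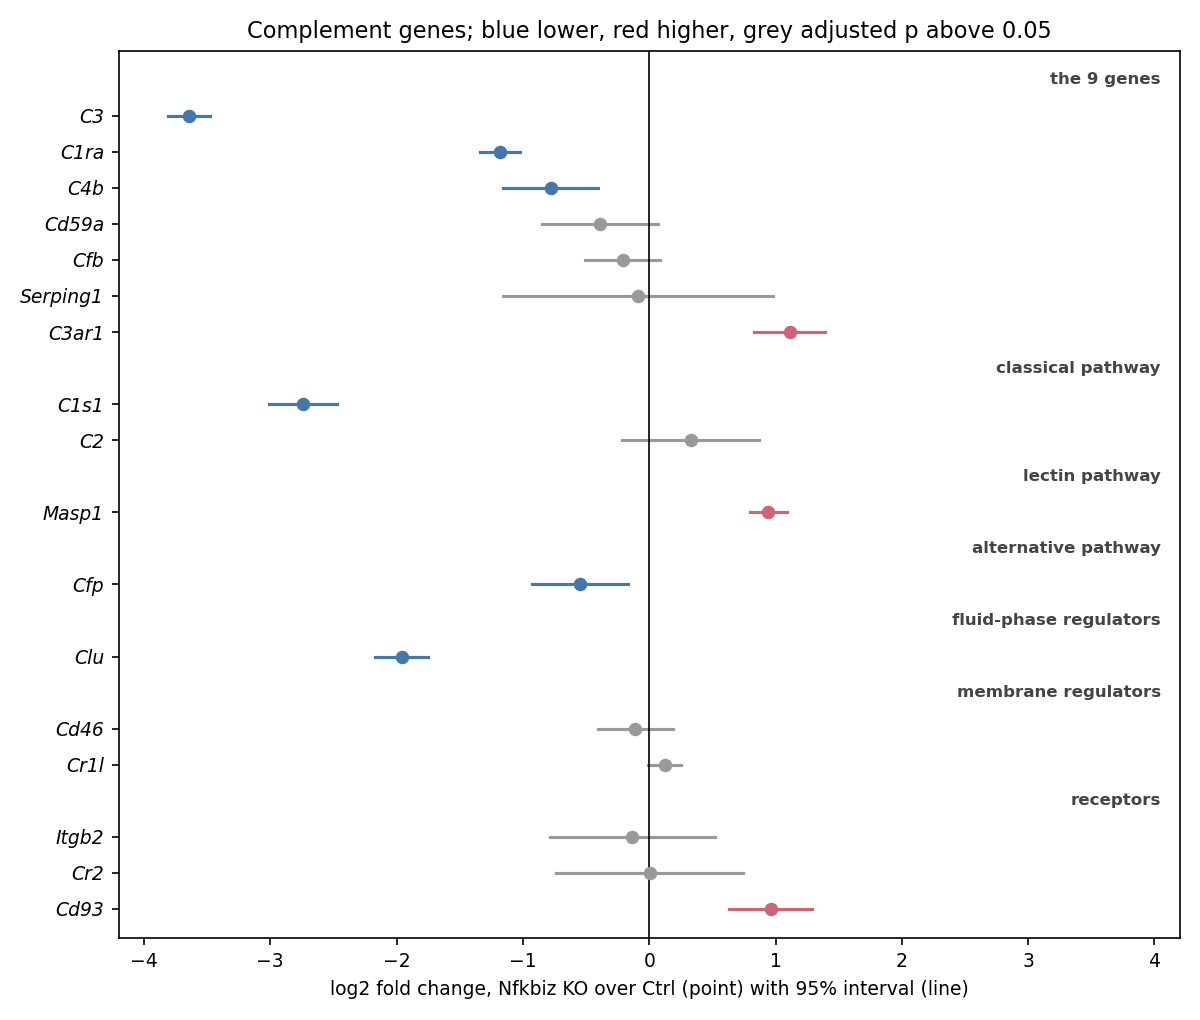
Log2 fold changes from edgeR in Nfkbiz KO over Ctrl (points, horizontal axis) with 95% intervals (lines) for 17 of the 18 complement genes tested, grouped by role. Blue and red genes passed the adjusted p of 0.05, grey genes did not. C3 (-3.64) and C1s1 (-2.74) lie farthest to the left, and C3ar1 (1.11) farthest to the right.

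The genes most like C3 were found by the root mean square difference of log2 CPM, centred on each gene's mean, over the 6 libraries, among 10123 tested genes with a mean of at least 4 TPM. Among the closest 5 were Slpi, which encodes a secreted protease inhibitor (difference 0.202), Lcn2, which encodes the iron-siderophore binding protein lipocalin 2 (0.221), Steap4, which encodes a metalloreductase (0.228), and Prss22, which encodes a serine protease (0.289). Slpi fell from 183 ± 17.4 to 17.5 ± 0.541 TPM, close to C3 in both level and log2 fold change (-3.49). Lcn2 fell from 224 ± 23.7 to 15.4 ± 0.677 TPM (-3.96), and Steap4 from 88.5 ± 8.94 to 5.94 ± 0.996 TPM (-3.94). Prss22 was at a lower level in Ctrl cells, 34.6 ± 7.13 TPM, and fell to 3.05 ± 0.697 TPM. Since these genes were chosen for their pattern, their likeness to C3 is a description.

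**Figure D5:**
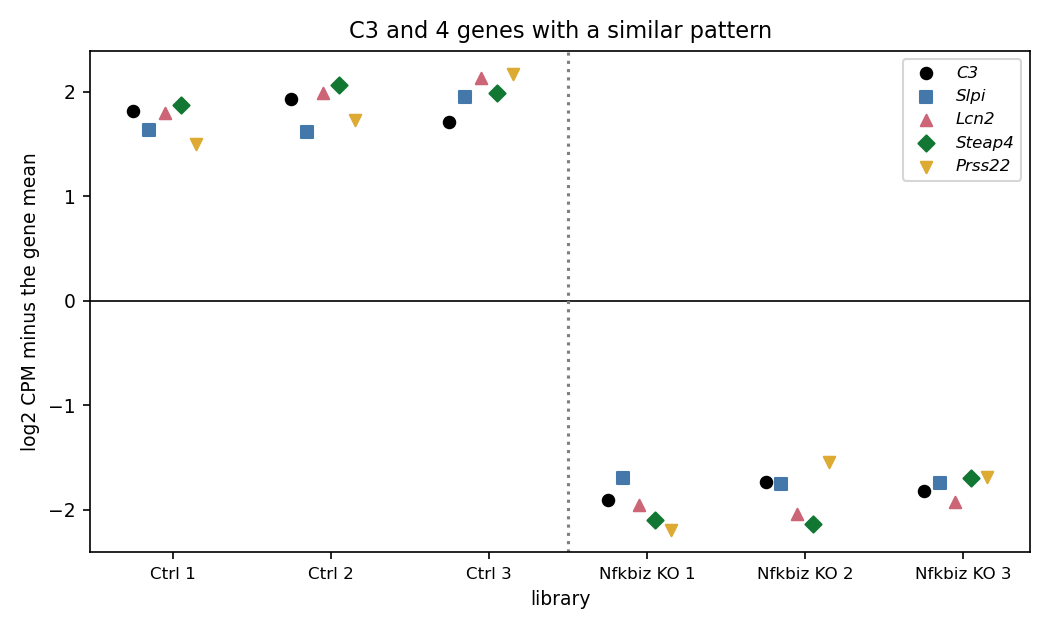
Log2 CPM minus each gene's mean over the 6 libraries (vertical axis) for C3 and 4 genes with a similar pattern, by library (horizontal axis). The dotted line separates Ctrl from Nfkbiz KO, and all genes shown lie above 0 in Ctrl and below 0 in Nfkbiz KO, with Slpi closest to C3 (0.202).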

How the data were processed

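RNA of 3 Ctrl and 3 Nfkbiz KO samples of D4M-3A cells (total RNA, paired-end reads) was compared. The authors mapped reads with CLC Genomics Workbench, without strand and with up to 10 hits a read, and deposited raw counts of total and unique reads per gene. The deposited TPM and RPKM values, written with decimal commas, are computed from exons, whereas the counts also hold reads outside exons. The study's methods name GRCm39 and the submitters' processing notes GRCm38. Of 2604 Ensembl identifiers in the files, 2529 were in the GRCm39 annotation used here for coordinates. RPKM was not used.

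Total counts were tested with edgeR 4.0.16 in R 4.3.3 (TMM, filterByExpr at 10 reads and 15 reads in total, quasi-likelihood test, Benjamini-Hochberg adjustment). The study names Student's t-test and set thresholds of 2 for the fold change, 0.05 for the adjusted p and 4 for the difference, whose unit is not given and was taken as TPM. Methods call the replicates independent experiments. No pair of libraries in a group was a duplicate. Chi-square values per degree of freedom were 27.8 to 71.4 between Ctrl libraries and 3.53 to 6.24 between Nfkbiz KO libraries. The Nfkbiz KO libraries thus lay closer together than the Ctrl libraries. The procedure was tested on simulated data with the same variability between replicates for every gene and in both groups. That simulation cannot show how the procedure does at the unequal spread of these libraries. Alternatives used DESeq2 1.42.0, limma 3.58.1, RLE factors, other filters, unique reads, a replicate block, no TPM cut-off and each library left out. Named were all 9 genes, other complement genes past the adjusted p of 0.05 with a fold change above 1.5, near copies, markers, Nfkbiz and the 5 genes most like C3, of which 2 genes in all are not reported here. These genes, lists and rules were chosen with earlier results of these data known. Figures were drawn with matplotlib 3.10.9.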

Additional observations from a re-analysis of the deposited data

How the results depend on the processing

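Over 14 alternatives, C3 kept a log2 fold change between -3.70 and -3.43, C1ra between -1.24 and -1.03 and C3ar1 between 0.96 and 1.18, each past the test's threshold throughout. C4b no longer passed the adjusted p of 0.05 with limma on log2(TPM + 1) and on log2(TPM + 0.1) (-0.64, adjusted p = 0.064), and the cause was not tested. Serping1, never past the threshold, changed sign in 3 settings, to 0.031 with limma on log2(TPM + 1), 0.18 without Ctrl replicate 1 and 0.28 without Nfkbiz KO replicate 2 (range -0.54 to 0.28 with each library left out). Without the TPM difference cut-off, 854 genes were called (369 higher, 485 lower) in place of 258, and C3ar1 was then called, which made 3 called genes of the 9. With limma on log2(TPM + 1), 127 genes were called higher and 97 lower, and 148 and 107 on log2(TPM + 0.1), in place of 109 and 149. At an adjusted p of 0.05 or less these splits were 3004 to 1327 and 2947 to 1279, beside 2627 to 2647, while the median log2 fold change of all genes was 0.06 and 0.08. With each library left out in turn, 248 to 276 genes were called. Same-numbered libraries did not deviate together (correlations of 0.04, -0.02 and 0.03), and the replicate block gave 257 called genes, 2 called of the 9 genes and 4 past the adjusted p, so it changed no call among them. Genes under about 20 reads a library, such as Serping1, are limited by depth.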

Other observations

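The neighbours of C3 and C1ra were looked at after their values were seen. Within 100 kb of C3, 6 other protein-coding genes are annotated, of which 3 were tested. These were lower by small amounts, beside 18.4% of all tested genes that were lower. Log2 fold changes were -0.22 for Trip10, -0.18 for Gpr108 and -0.33 for Tnfsf9 (adjusted p = 0.011, 0.040 and 0.0498 from edgeR). Gpr108 and Tnfsf9 thus lay near the threshold of 0.05, and whether they pass it under the alternatives was not looked at. Cd70, Tnfsf14 and Vav1, the remaining 3, had 0 reads in every library. Within 100 kb of C1ra, 3 of 5 such genes were tested and were lower, beside the same 18.4%: C1s1 (-2.74), C1rl (-0.81) and Pex5 (-0.20). C1rl, which encodes a protein related to C1r, averaged 5.11 ± 0.416 TPM in the Ctrl libraries against 3.15 ± 0.339 TPM in the knockout (SD, n = 3 each), with 168, 187 and 204 reads against 97, 102 and 127.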
